A study of Mus musculus with 25 samples.

Results

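The mitochondrial ribosomal protein genes encode the protein subunits of the mitochondrial ribosome. They were taken here as all gene symbols of the deposited expression table that begin with Mrps or Mrpl and a digit and that had a value of at least 1 in at least 3 libraries. This rule found 76 genes among 23366 symbols, 29 named for the small subunit (Mrps) and 47 named for the large subunit (Mrpl). Every symbol with such a name passed the threshold, 0 fell outside it, and 0 members had a value of 0 in any library. Bulk RNA sequencing had been done on CD8+ T cells isolated from B16F10 tumours, a mouse melanoma line grown in C57BL/6 mice. The groups were Prdm1/c-Maf cDKO with 3 libraries, Prdm1 cKO with 3, c-Maf cKO with 3 and wild type with 16. The term cKO stands for conditional knockout, the removal of a gene in chosen cells only, and in the cDKO both genes were to be removed. Prdm1 encodes the transcriptional repressor Blimp-1 and Maf encodes the transcription factor c-Maf. The labels do not give the line that drove the deletion, age, sex, collection day or whether libraries came from separate mice. P-values therefore reflect the spread between libraries alone, which may be technical. About 2000 cells were lysed on average, 5 uL of lysate entered the RNA cleanup, and libraries were made by an adapted SMART-Seq 2 method.

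The mitochondrial ribosome translates the few proteins encoded by mitochondrial DNA, which are core subunits of the oxidative phosphorylation complexes. Its ribosomal RNAs come from mitochondrial DNA, whereas all of its proteins are encoded in the nucleus, made on cytosolic ribosomes and imported. Some subunits have bacterial counterparts and others are found only in mitochondria. In activated T cells, growth of mitochondria and their translation are known to accompany proliferation and effector function.

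Promoters of 4 members are shown as examples, out of the 12 that passed the test in cDKO libraries described below. Mrps6 had the largest fold change of the set, Mrpl42 and Mrps18a were lower in cDKO libraries and share a motif, and Mrpl30 was the sole member that was higher. Each runs 5′ to 3′ on the gene's own strand, from 250 bases before the gene's start to 50 after it, as given by RefSeq on GRCm38.p6. The positions are chr16:92058086-92058385 (plus strand) for Mrps6, chr10:95501900-95502199 (minus strand) for Mrpl42, chr17:46110754-46111053 (plus strand) for Mrps18a and chr1:37890227-37890526 (plus strand) for Mrpl30. Capitals mark matches to the motifs given after the sequences.
Mrps6: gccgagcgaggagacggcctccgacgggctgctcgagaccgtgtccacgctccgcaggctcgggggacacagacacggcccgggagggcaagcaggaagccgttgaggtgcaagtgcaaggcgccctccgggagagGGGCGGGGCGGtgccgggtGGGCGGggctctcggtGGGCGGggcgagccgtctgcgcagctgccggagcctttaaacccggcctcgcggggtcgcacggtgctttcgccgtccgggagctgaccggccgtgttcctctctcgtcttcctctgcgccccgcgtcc
Mrpl42: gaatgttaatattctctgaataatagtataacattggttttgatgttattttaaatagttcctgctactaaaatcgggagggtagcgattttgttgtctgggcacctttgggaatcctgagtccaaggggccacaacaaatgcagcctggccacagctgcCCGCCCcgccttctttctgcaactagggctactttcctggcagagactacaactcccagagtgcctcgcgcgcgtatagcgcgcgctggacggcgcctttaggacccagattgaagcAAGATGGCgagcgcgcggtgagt
Mrps18a: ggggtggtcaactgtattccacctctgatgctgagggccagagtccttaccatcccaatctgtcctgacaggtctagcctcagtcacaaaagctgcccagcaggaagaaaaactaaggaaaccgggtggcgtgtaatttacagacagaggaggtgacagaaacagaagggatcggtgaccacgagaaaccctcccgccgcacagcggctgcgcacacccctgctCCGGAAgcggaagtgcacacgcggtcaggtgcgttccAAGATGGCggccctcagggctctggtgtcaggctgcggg
Mrpl30: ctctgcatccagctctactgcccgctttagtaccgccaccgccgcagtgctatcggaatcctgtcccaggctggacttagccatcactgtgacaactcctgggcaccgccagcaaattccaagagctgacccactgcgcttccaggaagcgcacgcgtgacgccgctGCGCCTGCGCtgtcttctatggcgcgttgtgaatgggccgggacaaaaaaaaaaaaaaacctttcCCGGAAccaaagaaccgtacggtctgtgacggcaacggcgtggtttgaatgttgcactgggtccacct
Motifs were searched as letters on both strands: GCGCA followed by any base and GCGC for NRF1, CCGGAA for ETS factors, AAGATGGC for YY1, CACGTG for the E-box and GGGCGG for the GC box. The Mrps6 promoter held 4 GC boxes, of which the first 2 overlap and print as 1 run of capitals. Mrpl42 held a GC box on the opposite strand and a YY1 match near the gene's start. Mrps18a held an ETS and a YY1 match, and Mrpl30 an NRF1 match on the opposite strand and an ETS match. RefSeq promoters were found for 67 members, which have 73 promoters between them. Among these 73 promoters, ETS letters were present in 41 (56.2%, against 14.9% of 32851 mouse promoters of the same length). GC boxes were present in 38 (52.1%, against 35.7%), YY1 letters in 12 (16.4%, against 2.75%), NRF1 letters in 12 (16.4%, against 4.6%) and E-boxes in 7 (9.59%, against 7.15%). Overlapping promoters of the same gene are counted separately. Those of Mrpl2 each hold an E-box, ETS letters and GC boxes, so the E-box count holds repeats of this gene. Among the 10 matched members that were lower in cDKO libraries, 5 held ETS letters, 4 a GC box, 3 the YY1 letters, 2 the NRF1 letters and 1 an E-box. The motif letters were chosen with these sequences at hand, and a match describes letters, not binding.

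The table holds a normalised signal whose scale is not stated, with column totals of 389650 to 475956. Sequencing depth is unknown, so no counting error can be given. Prdm1 averaged 3.05 ± 1.77 in cDKO libraries (SD, n = 3) and 2.93 ± 2.24 in Prdm1 cKO libraries (n = 3), against 15.5 ± 5.31 in wild-type libraries (n = 16). For both groups the exact two-sided permutation p was 0.00206, the smallest that 969 splits allow. Maf was low throughout, at 0.07 ± 0.0964 in cDKO libraries and 0.462 ± 0.30 in wild-type libraries (exact two-sided permutation p = 0.0289, n = 3 and 16). By the same test, c-Maf cKO libraries as a group did not differ detectably from wild type (0.31 ± 0.537, permutation p = 0.493, n = 3). Prdm1 cKO libraries had 0.833 ± 0.369 (permutation p = 0.0826, n = 3). Libraries B10 and B11, labelled c-Maf cKO, had Maf at 0, whereas C1, which carries the same label, had 0.93, inside the wild-type range of 0.03 to 0.95. The knockout columns of the table are each placed next to a separate block of wild-type columns. These 3 column sets hold Prdm1 cKO with 7 wild-type libraries (set 1), c-Maf cKO with 4 (set 2), and cDKO with 5 (set 3), and they are not labelled as batches. The library codes do not follow the sets throughout. The cDKO libraries A1 and A2 carry the letter A, as do all libraries of set 1. The wild-type libraries of set 3 carry the letter B. Which wild-type libraries match A1 and A2 is not given, and whether code or column order marks a batch was not tested. Values against wild-type libraries from the same set are given where they bear on a result.

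Averaged over all libraries, the signal of the members spanned 4.98 to 81.2, with a median of 27.5. Low values in the table fell with transcript length, as in length-scaled units, which allows a rough order of levels. The highest averages were those of Mrpl20 (81.2), Mrpl30 (76.1) and Mrps6 (73.3), and the lowest those of Mrpl11 (4.98), Mrpl1 (5.21) and Mrpl47 (7.29). Mrpl11 and Mrpl1 are homologues of the bacterial proteins that build the stalks of the large subunit. Among wild-type libraries the coefficient of variation had a median of 18.6%, from 9.61% for Mrpl20 to 37.8% for Mrps30.

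On the deposited scale, though not after a rescaling of libraries to their CD3 genes, the set was lowest in cDKO and Prdm1 cKO libraries. The mean of log2(signal + 1) over the 76 genes was 4.58, 4.502 and 4.40 in cDKO libraries C2, A1 and A2. It was 4.68, 4.52 and 4.48 in Prdm1 cKO libraries A5, A6 and A9, and 4.91, 4.79 and 4.75 in c-Maf cKO libraries B10, B11 and C1. In wild type it ran from 4.52 to 5.01, with group means of 4.49 ± 0.09 in cDKO libraries and 4.77 ± 0.12 in wild type (SD, n = 3 and 16). All 3 cDKO values lay below 15 of the 16 wild-type values, and the lowest wild-type library, of the cDKO column set, overlapped them. Prdm1 cKO values overlapped the lower part of the wild-type range, and c-Maf cKO values lay inside it. Genes with large-subunit names (Mrpl) made up 63.9 ± 1.38% of the summed member signal in cDKO libraries and 62.3 ± 1.07% in wild type, with overlapping ranges. In bulk samples fewer cells of a type and less RNA per cell cannot be told apart.

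**Figure D1:**
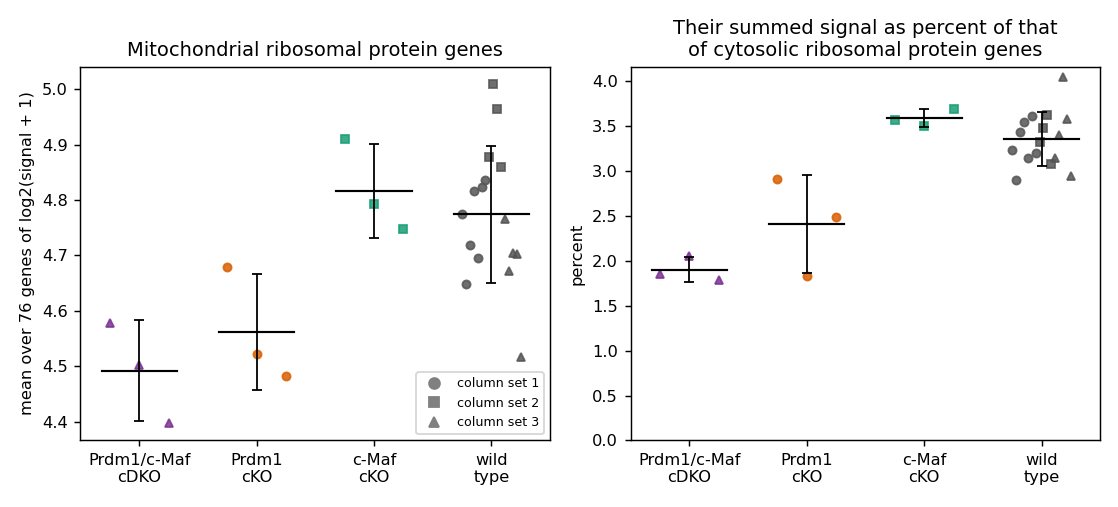
Left, mean log2(signal + 1) over the 76 mitochondrial ribosomal protein genes in each library; right, their summed signal as a percent of the summed signal of the cytosolic ribosomal protein genes. Points are libraries, shapes give the column set, and lines and bars are the group mean and SD. On the left the cDKO libraries (4.40 to 4.58) overlap the lowest wild-type library (4.52). On the right the cDKO libraries (1.79% to 2.06%) lie below all wild-type libraries (2.90% to 4.05%). The percent also carries the change of the cytosolic genes, whose median log2 fold change in cDKO libraries was 0.49.

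In cDKO libraries most members had lower signal than in wild type. On the deposited scale 67 of 76 genes (88.2%) had a log2 fold change below 0 in cDKO against wild-type libraries, as did 52.6% of the 12251 genes tested, and the median was -0.29 beside -0.03 for all genes, although a rescaling of libraries to their CD3 genes turned the median to 0.11 beside 0.31 for all genes. At an adjusted p under 0.05 in limma, a linear model with a moderated spread fitted over all genes and libraries, 11 members (14.5%) were lower, where 6.85% of all genes tested were. By the same test 1 member (1.32%) was higher, where 5.09% of all genes were, and the 12 members called in either direction (15.8%) compare with 11.9% of all genes. At an unadjusted p under 0.05 there were 31 members (40.8%), against 24.8% of all genes. All 3 cDKO libraries lay below all 16 wild-type libraries for 4 members, Mrps6, Mrpl42, Mrpl20 and Mrpl11 (5.26%, against 2.16% of all genes), and above them for Mrpl30 (1.32%, against 3.12%). Against just the 5 wild-type libraries that share its column set, 10 members lay below (13.2%, against 5.38%) and Mrpl30 above (1.32%, against 7.37%). Genes with small-subunit names (Mrps) had a median of -0.30 with 4 lower, and those with large-subunit names (Mrpl) a median of -0.27 with 7 lower and 1 higher. The name does not always give the place of the product, as stated below for Mrps36, Mrps18a and Mrps30, of which Mrps36 and Mrps18a are among the 4. Of the 12 calls, 10 were among the 38 members of higher level (median -0.34) and 2 among the 38 of lower level (median -0.27). Library A2 weighed most on the count: 3 members were called without it, and 6 without A1.

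**Figure D2:**
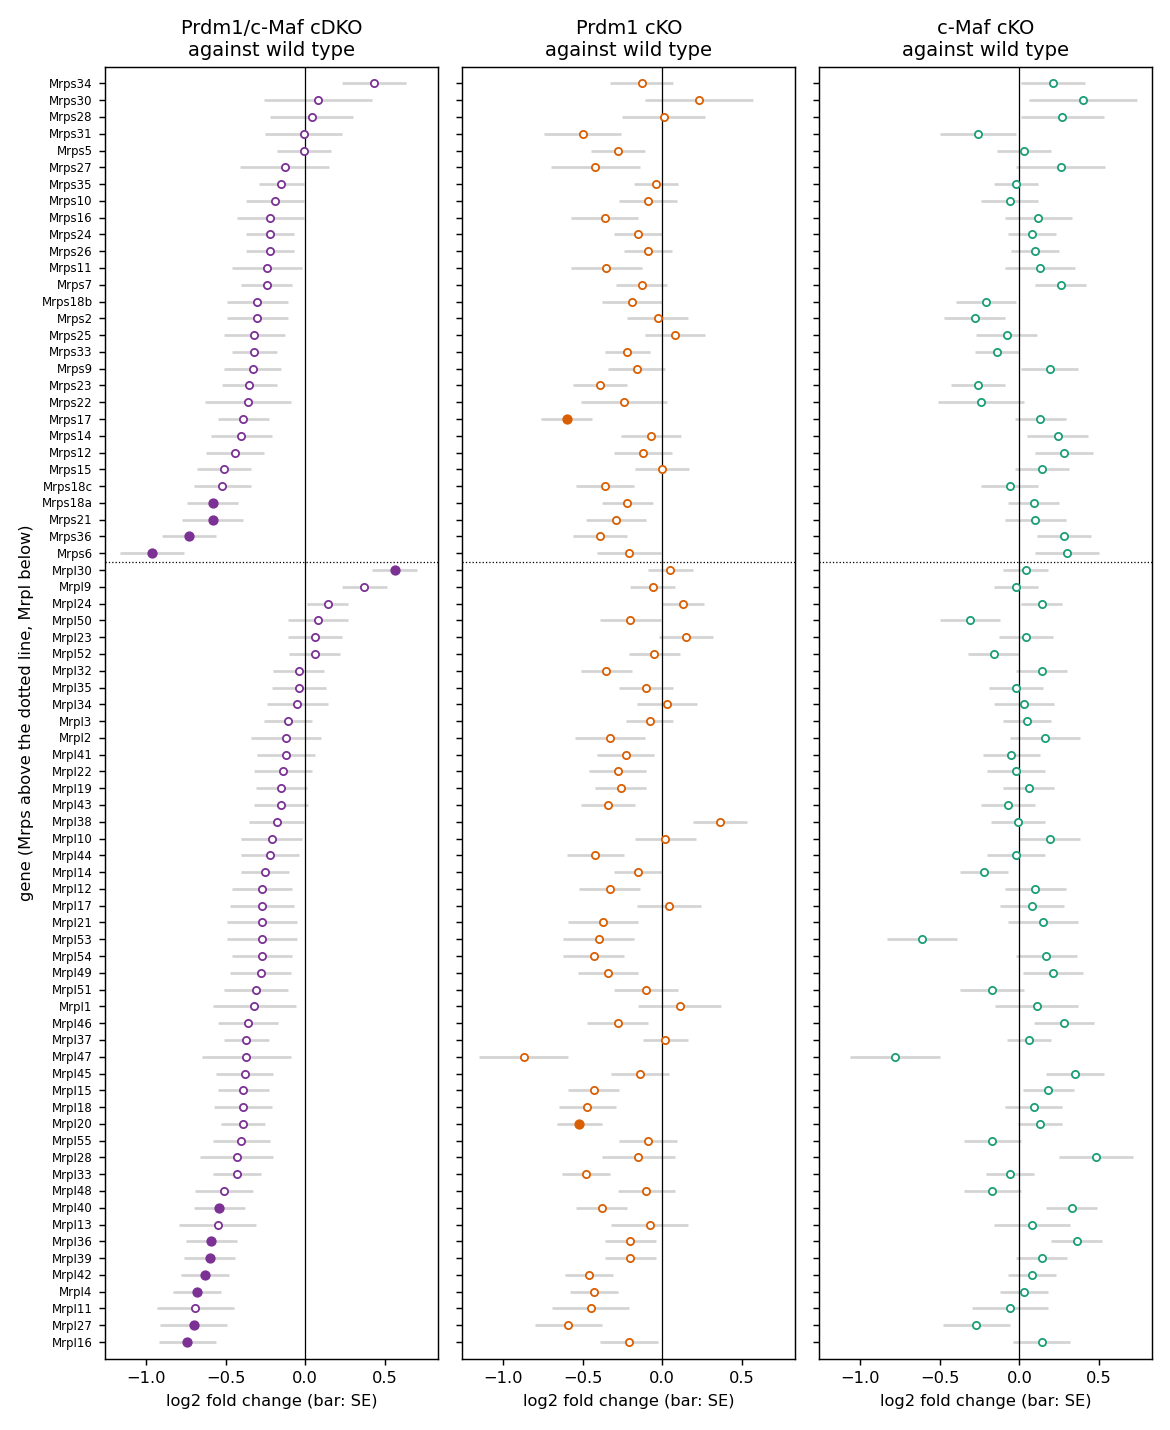
Log2 fold change of each of the 76 genes against wild type in Prdm1/c-Maf cDKO, Prdm1 cKO and c-Maf cKO libraries (point, with the standard error as a bar), on the deposited scale. Filled points passed an adjusted p under 0.05 in limma: 12 genes in the cDKO panel, 2 in the Prdm1 panel and 0 in the c-Maf panel.

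Among small-subunit names, Mrps6 changed most. It encodes the homologue of a bacterial small-subunit protein. Its signal was 29.2, 43.8 and 43.9 in cDKO libraries C2, A1 and A2, against 56.5 to 105 with a median of 75.1 in wild type. The groups did not overlap, and the log2 fold change was -0.96 ± 0.20 (SE, limma adjusted p = 0.00269). The call was lost only under the CD3 rescaling (-0.53, adjusted p = 0.248) among 14 alternatives. The gene shares exon sequence with Slc5a3, a myo-inositol transporter on the same strand, which averaged 5.16 in cDKO and 5.68 in wild-type libraries (-0.16 ± 0.26, adjusted p = 0.786).

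Mrps36 had 26.4, 16.8 and 27.0 in cDKO libraries, against 25.5 to 50.7 with a median of 39.5 in wild type. Although it carries a ribosomal name, its product is now known as a component of the oxoglutarate dehydrogenase complex in mammals. The ranges overlapped at their edge, and the log2 fold change was -0.73 ± 0.17 (limma adjusted p = 0.00621). The call was lost without library A1 (adjusted p = 0.122) and under the CD3 rescaling. Mrps18a, whose product lies in the large subunit in mammalian structures, averaged 21.1 ± 5.78 in cDKO and 31.5 ± 4.92 in wild-type libraries (-0.58, limma adjusted p = 0.0213), with library C2 at 27.5 inside the wild-type range. Its paralogs Mrps18b and Mrps18c missed the threshold. Mrps18c averaged 27.4 ± 6.55 in cDKO and 39.5 ± 7.11 in wild-type libraries (-0.52, limma adjusted p = 0.0551), and Mrps18b averaged 25.3 ± 7.60 and 31.0 ± 6.23 in the same groups (-0.30, adjusted p = 0.361). Mrps21 had 51.2, 45.8 and 30.3 in cDKO libraries, against 36.5 to 83.6 in wild type (-0.58, limma adjusted p = 0.0385), and library A2 alone lay below the wild-type range. The calls of Mrps18a and Mrps21 were lost without A1 (adjusted p = 0.12 and 0.083), without A2 (0.246 and 0.41) and under the CD3 rescaling, and that of Mrps18a with the column set as covariate. The call of Mrps21 was also lost with no filter on low values (0.0694) and without the trend and robust options (0.0569).

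Among large-subunit names, Mrpl4 and Mrpl16 have bacterial counterparts near the peptide exit tunnel and the transfer RNA sites. Mrpl4 had 59.8, 39.5 and 38.9 in cDKO libraries, against 50.9 to 96.0 with a median of 72.7 in wild type. Libraries A1 and A2 lay below all wild-type libraries and C2 within them, at a log2 fold change of -0.68 ± 0.15 (limma adjusted p = 0.0043). Mrpl16 had 10.6, 10.9 and 12.1 in cDKO libraries, against 11.8 to 24.2 with a median of 21.3 in wild type. The cDKO libraries were close together and only A2 overlapped the lowest wild-type value, at -0.74 ± 0.18 (limma adjusted p = 0.00623). Mrpl42, a subunit with no bacterial counterpart, had 49.97, 48.5 and 42.4 in cDKO libraries, against 52.6 to 90.9 with a median of 74.4 in wild type. These groups did not overlap (-0.63, limma adjusted p = 0.00712). All 3 calls were lost under the CD3 rescaling, that of Mrpl4 also without A1 (adjusted p = 0.056) or A2 (0.073), and that of Mrpl42 without A2 (0.084) and with the column set as covariate.

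The other large-subunit genes that fell were Mrpl39, Mrpl36, Mrpl40 and Mrpl27. Mrpl39 averaged 11.3 ± 2.74 in cDKO and 17.5 ± 2.76 in wild-type libraries (-0.60, limma adjusted p = 0.0149). Mrpl36 averaged 24.5 ± 5.21 in cDKO and 37.4 ± 6.94 in wild-type libraries (-0.59, limma adjusted p = 0.0175). Mrpl40 averaged 31.9 ± 7.30 in cDKO and 46.8 ± 8.0 in wild-type libraries (-0.54, limma adjusted p = 0.0293). For all 3 the groups overlapped, and the calls were lost without library A2 (adjusted p = 0.074, 0.147 and 0.243 for Mrpl39, Mrpl36 and Mrpl40), with the column set as covariate and under the CD3 rescaling. Those of Mrpl36 and Mrpl40 were lost without A1 as well (0.133 and 0.161), and that of Mrpl39 without C2 (0.151). Mrpl27, whose bacterial counterpart reaches the peptidyl transferase centre, had 20.8, 30.5 and 11.8 in cDKO libraries, against 22.3 to 44.1 in wild type (-0.70, limma adjusted p = 0.03). That call was lost without C2 (0.065) or A2 (0.462), with the column set and under the CD3 rescaling. With no filter on low values the calls of Mrpl27 (0.0582) and Mrpl40 (0.0512) were lost, and 9 members in all were called. Exons of Mrpl36 and Mrpl27 overlap those of Ndufs6 and Eme1 on the opposite strand in the annotation, and whether strand was used in counting is not given in the sources used here. Such overlaps with another coding gene concerned 23 of the 76 members, 4 of them on the same strand, and reads of the pairs cannot be told apart here.

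Mrpl30 went the other way. Its signal was 111, 92.1 and 113 in cDKO libraries, against 54.8 to 90.7 with a median of 71.0 in wild type. Every cDKO library exceeded every wild-type library, at a log2 fold change of 0.56 ± 0.14 (limma adjusted p = 0.01), and the call was lost without C2 (adjusted p = 0.053) or without A2 (0.096). The other 8 members with a fold change above 0 were Mrps34, Mrpl9, Mrpl24, Mrps30, Mrpl50, Mrpl23, Mrpl52 and Mrps28, and all missed the threshold. Mrps34, a subunit whose human gene is mutated in a mitochondrial disease, averaged 33.5 ± 2.17 in cDKO and 25.1 ± 5.86 in wild-type libraries (0.43, limma adjusted p = 0.161). It passed the threshold under the CD3 rescaling (0.85, adjusted p = 0.0433), and its exons overlap those of Nme3 on the same strand.

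**Figure D3:**
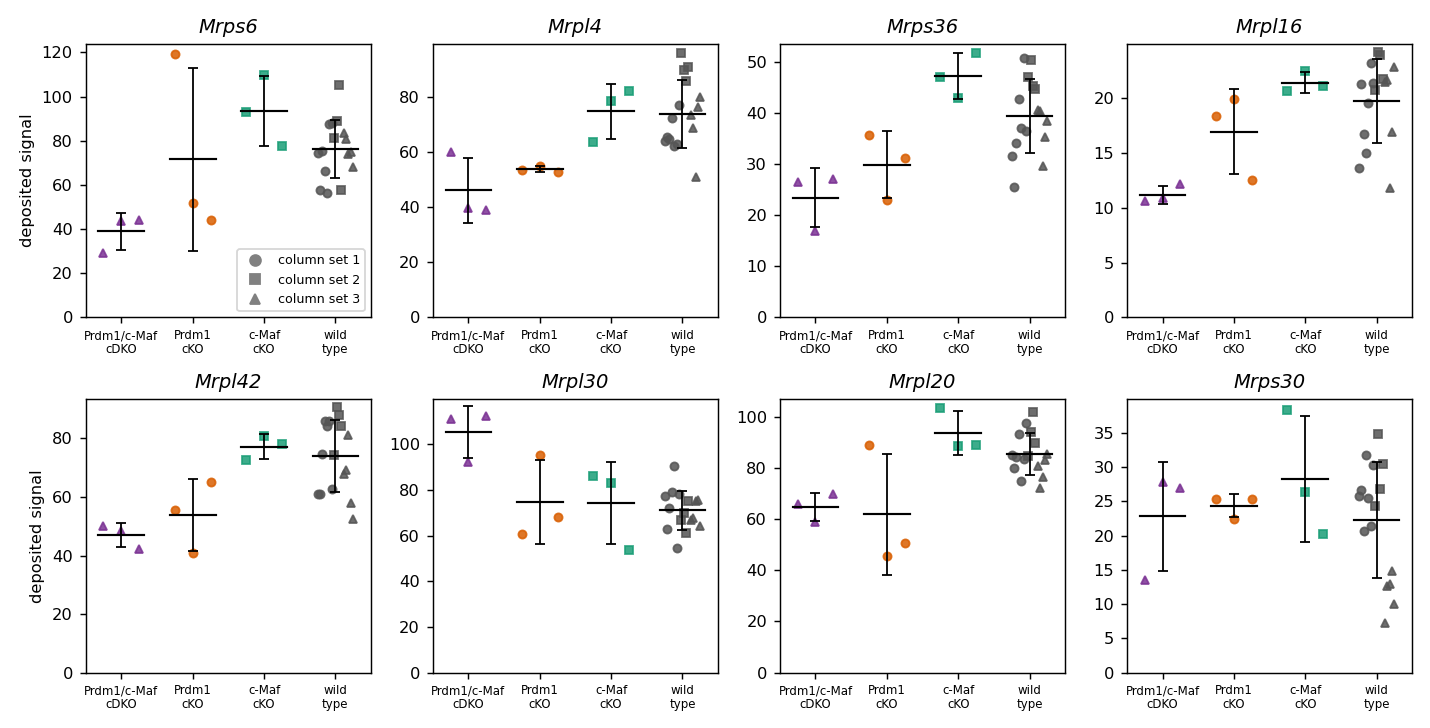
Deposited signal of 8 mitochondrial ribosomal protein genes in each library, by genotype, with the group mean and SD; shapes give the column set. Mrps6 and Mrpl42 in cDKO libraries lie below all wild-type libraries and Mrpl30 lies above them. Among wild-type libraries the 5 of column set 3 have the lowest Mrps30 values (7.26 to 14.8), and cDKO library C2 (13.6) lies within their range.

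Of 18 members taken for their known roles, Mrps6 and Mrps18a passed the threshold in cDKO libraries, a share near the 11.9% of all genes called. Mrps12, a protein of the decoding centre, averaged 27.8 ± 3.19 in cDKO and 38.5 ± 7.19 in wild-type libraries (-0.44, limma adjusted p = 0.122). Mrpl12, a stalk protein, averaged 52.0 ± 4.55 in cDKO and 64.5 ± 15.1 in wild-type libraries (-0.27, adjusted p = 0.400). Mrpl11, at the base of that stalk, averaged 2.93 ± 0.280 and 5.50 ± 1.5 in the same groups (-0.69, adjusted p = 0.0601), with no overlap. None of Mrps2, Mrps16, Mrps22, Mrpl3 and Mrpl44, whose human counterparts are mutated in combined oxidative phosphorylation deficiency, passed the threshold in cDKO libraries, with log2 fold changes of -0.30, -0.22, -0.36, -0.11 and -0.22 in that order. Mrps5, Mrps35, Mrpl41 and Mrpl33 had -0.01, -0.15, -0.12 and -0.43.

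In Prdm1 cKO libraries the shift of the set was of similar direction, with few single calls. Fold changes were below 0 for 63 of 76 genes (82.9%, against 51.6% of all genes) with a median of -0.21 beside -0.02, although the CD3 rescaling turned it to 0.26 beside 0.37. Calls were 2 lower (2.63%, against 1.87% of all genes) and 0 higher (against 1.58%), where 3.45% of all genes were called in either direction. At an unadjusted p under 0.05 there were 17 members (22.4%, against 20.6%), and the groups overlapped for all 76, while 0.816% of all genes lay below all wild-type libraries and 0.824% above. These libraries are set against the same wild-type libraries as cDKO, so the comparisons share their controls. Mrpl20 had 89.2, 45.6 and 50.8 in Prdm1 cKO libraries A5, A6 and A9, against 72.1 to 102 with a median of 84.6 in wild type. Libraries A6 and A9 lay below the wild-type range and A5 within it (-0.52 ± 0.14, limma adjusted p = 0.0325). In cDKO libraries Mrpl20 had 65.9, 59.0 and 69.8, below every wild-type library, but its adjusted p of 0.0614 in limma missed the threshold (-0.39). Mrps17 had 19.1, 14.9 and 25.01 in Prdm1 cKO libraries, against 21.0 to 37.9 in wild type (-0.60 ± 0.16, limma adjusted p = 0.0362). Both calls were lost with the column set as covariate, under the CD3 rescaling, without the trend and robust options and without library A6; that of Mrpl20 was lost without A9 too, and that of Mrps17 without A5. Mrpl47 had 7.38, 2.89 and 2.85 in Prdm1 cKO libraries, against 4.85 to 13.1 in wild type (-0.87, limma adjusted p = 0.068). Its exons overlap those of Ndufb5 and Actl6a on the opposite strand, whose signal averaged 70.3 and 31.9 over all libraries. Library A5 was the highest of the 3 for Mrpl20 and Mrpl47 and A9 for Mrps17. For Mrps6 A5 had 119, above every wild-type library, beside 51.9 in A6 and 43.9 in A9.

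In c-Maf cKO libraries 0 members were called by limma, as were 0 of all genes tested, and 4 members had an unadjusted p under 0.05 (5.26%, against 6.16% of all genes). The median was 0.08 beside 0.00 for all genes, and it turned to -0.08 with the column set as covariate and to -0.14 beside -0.18 under the CD3 rescaling. Set against the 4 wild-type libraries in its own column set, 8 members lay below all of them (10.5%, against 4.07% of all genes) and 0 above (against 3.06%). That wild-type set had the highest member mean of log2 signal, 4.93, against 4.76 and 4.67 in the others. Mrpl47 had 5.32, 3.85 and 3.96 in c-Maf cKO libraries, against 4.85 to 13.1 with a median of 8.195 in wild type, so that 2 of 3 lay below the range (-0.78, limma adjusted p = 0.776). Mrpl53, a subunit found only in mitochondria, had 16.8, 13.98 and 14.1, against 16.7 to 40.4 (-0.61, adjusted p = 0.793). Mrpl36 averaged 47.6 ± 6.06 in c-Maf cKO and 37.4 ± 6.94 in wild-type libraries (0.36, adjusted p = 0.80).

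Between knockout groups, cDKO libraries were lower than c-Maf cKO libraries for 10 members and higher for 0 (13.2%, against 5.61% of all genes lower, 3.78% higher and 9.39% in either direction). The median was -0.34 beside -0.01 for all genes, but it was -0.09 with 0 members called when the column set was a covariate and 0.29 beside 0.50 under the CD3 rescaling. All cDKO libraries lay below all c-Maf cKO libraries for 25 members (32.9%, against 14.9%). Mrps6 had 92.8, 110 and 77.9 in c-Maf cKO libraries, far above its cDKO values (-1.25, limma adjusted p = 0.0044). Mrpl36 (-0.94, adjusted p = 0.0064) and Mrps36 (-1.01, adjusted p = 0.0065) followed. All 3 calls were lost under the CD3 rescaling, and that of Mrps36 without A1 (0.0514). Between cDKO and Prdm1 cKO libraries 0 members were called by limma (0.392% of all genes were), 8 had an unadjusted p under 0.05 (10.5%, against 12.6%), and the median was -0.10, which turned to 0.04 with the column set as covariate. Between Prdm1 cKO and c-Maf cKO libraries 0 members were called (1.53% of all genes were), 16 had an unadjusted p under 0.05 (21.1%, against 20.7%), and the median was -0.29, or -0.08 with the column set as covariate and 0.39 beside 0.55 under the CD3 rescaling.

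Few other genes of mitochondrial translation were called in cDKO libraries, where 11.9% of all genes tested were. Of 7 mitochondrial ribosome subunits with other names, such as Dap3, 0 were called and the median log2 fold change was -0.16 (0.24 under the CD3 rescaling). Of 16 translation factors 0 were called (median -0.25), of 20 mitochondrial transfer RNA synthetases 0 (0.03), and of 24 assembly and ribosomal RNA modification factors 0 (-0.08). These 3 medians were 0.11, 0.36 and 0.29 under the CD3 rescaling, which called 1 assembly factor higher. In Prdm1 cKO libraries 2 assembly factors were lower (8.33%, against 1.87% of all genes), the RNA helicase Ddx28 and Mterfd2. Ddx28 averaged 4.05 ± 0.876 in Prdm1 cKO and 10.3 ± 4.06 in wild-type libraries (-1.09 ± 0.30, limma adjusted p = 0.0435), and both calls were lost without A6 or A9, with a pseudocount of 10, with the column set as covariate and under the CD3 rescaling. That of Ddx28 was lost without A5, with no filter on low values and without the trend and robust options too, and that of Mterfd2 in a fit of only the groups compared. Of 13 genes of mitochondrial DNA upkeep and transcription, only Tfam, which packages mitochondrial DNA, was called (7.69%, against 11.9% of all genes). It was lower, at 5.11 ± 1.43 in cDKO and 7.65 ± 1.28 in wild-type libraries (-0.51 ± 0.17, limma adjusted p = 0.0499). That call was lost without A1 or A2, with a pseudocount of 10 and with no filter on low values. The median-of-ratios and CD3 scalings and the column set as covariate lost it too. Of 11 regulators only Myc was called (9.09%, also near the share of all genes). It was higher, at 70.4 ± 10.5 in cDKO and 48.6 ± 7.99 in wild-type libraries (0.53 ± 0.15, limma adjusted p = 0.0185), a call lost without C2 or A2. Nuclear oxidative phosphorylation genes had 15 of 80 lower and 2 higher (21.2% in either direction, against 11.9% of all genes). Their median was -0.27 (0.16 under the CD3 rescaling), close to that of the mitochondrial ribosomal proteins. The lower calls became 5 without A1 or without A2 and 7 with the column set. Cox5a, a cytochrome c oxidase subunit, averaged 126 ± 20.1 in cDKO and 189 ± 26.6 in wild-type libraries (-0.59 ± 0.12, limma adjusted p = 0.00259).

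Cytosolic ribosomal protein genes had medians above 0 in the same libraries under every scaling tried. In cDKO libraries 62 of 80 were higher and 2 lower (80.0% in either direction, against 11.9% of all genes), with a median log2 fold change of 0.49. In Prdm1 cKO libraries 9 were higher (11.2%, against 1.58% of all genes), with a median of 0.25. Rplp1, a stalk protein of the cytosolic large subunit, averaged 3221 ± 155 in cDKO and 1677 ± 203 in wild-type libraries (0.95 ± 0.13, limma adjusted p = 6.56e-05). The count of 62 became 43 without A2 and 40 without C2. The 9 in Prdm1 cKO libraries became 19 without A5, 0 without A6, 1 without A9, 28 with median-of-ratios scaling and 0 with the column set as covariate. The summed signal of the mitochondrial ribosomal proteins as a percent of that of the cytosolic ones does not depend on how libraries are scaled. It was 1.85%, 2.06% and 1.79% in cDKO libraries C2, A1 and A2, 2.91%, 1.83% and 2.48% in Prdm1 cKO libraries A5, A6 and A9, and 3.57%, 3.51% and 3.70% in c-Maf cKO libraries B10, B11 and C1. In wild type it ran from 2.90% to 4.05% with a mean of 3.36 ± 0.296% (SD, n = 16). The cDKO libraries lay below every wild-type library, 2 of 3 Prdm1 cKO libraries did, and the c-Maf cKO libraries lay within the range. This ratio falls with a lower member sum and also with a higher cytosolic sum. On the deposited scale the member sum alone was 2023 ± 151 in cDKO libraries (1906 to 2193) and 2462 ± 208 in wild type (2141 to 2894), with overlapping ranges. As a percent of the summed oxidative phosphorylation signal the members made up 22.9 ± 1.44% in cDKO and 23.9 ± 1.33% in wild-type libraries, with overlapping ranges.

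**Figure D4:**
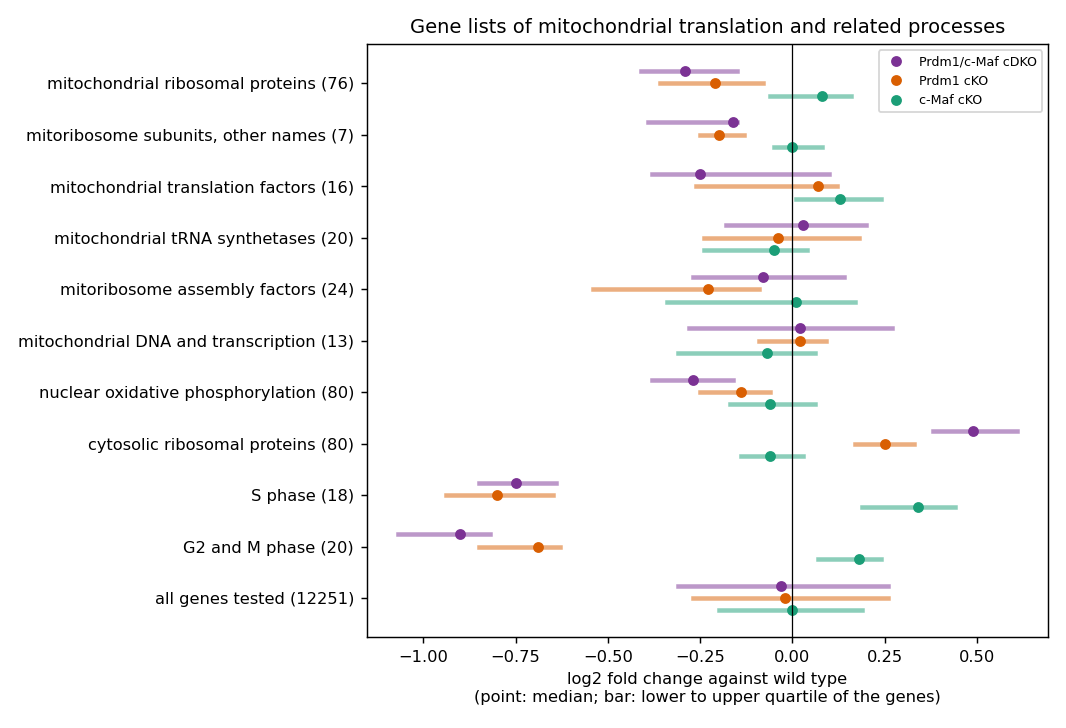
Log2 fold changes against wild type of gene lists of mitochondrial translation and related processes, with the number of genes tested in brackets. Points are list medians and bars run from the lower to the upper quartile, on the deposited scale. In cDKO the mitochondrial ribosomal protein genes (-0.29) and the oxidative phosphorylation genes (-0.27) lie left of all genes (-0.03), and both medians turned positive (0.11 and 0.16, beside 0.31 for all genes) when libraries were rescaled to their CD3 genes; cytosolic ribosomal protein genes (0.49) lie to the right.

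Other features of the libraries also differed between groups, not all in the same direction in cDKO and Prdm1 cKO libraries. All marker sums given here overlapped the wild-type range. The part of these features in the results was not tested. Cell cycle genes were lower: 12 of 18 S phase and 15 of 20 G2 and M phase genes in cDKO libraries, with medians of -0.75 and -0.90, and 9 and 2 in Prdm1 cKO libraries. Without A2 the cDKO counts were 2 and 1, without A1 they were 3 and 10, and without C2 they were 10 and 9. The Prdm1 cKO counts were 8 and 6 without A5, 1 and 0 without A6 and 1 and 1 without A9, and the CD3 rescaling left 0 and 2 in cDKO and 0 and 0 in Prdm1 cKO libraries. The summed signal of 9 CD8 T cell markers was 1460 to 2711 in cDKO, 1559 to 1971 in Prdm1 cKO and 2663 to 2761 in c-Maf cKO libraries, against 1226 to 3506 in wild type. Erythroid markers summed to 463 to 4254 in cDKO libraries, against 1.38 to 1568 in wild type. Of these, 4 of 6 tested markers were higher in cDKO libraries (66.7%, against 5.09% of all genes). Macrophage and monocyte markers summed to 1375 to 4163 in Prdm1 cKO and 154 to 236 in cDKO libraries, against 52.1 to 2351 in wild type. Dendritic cell markers summed to 99.0 to 340 in cDKO and 1483 to 6224 in Prdm1 cKO libraries, against 55.1 to 2549 in wild type. Melanoma markers summed to 97.8 to 1340 in cDKO, 663 to 1327 in Prdm1 cKO and 13.4 to 579 in c-Maf cKO libraries. In wild type they summed to 6.69 to 3116. None of the defining erythroid or macrophage markers was at 0 in all libraries of cDKO, Prdm1 cKO or wild type. Haemoglobin genes took at most 0.891% of a column, in cDKO library A2, and leaving them and the ribosomal RNA gene Rn45s out of the scaling gave 18 called members in cDKO, which held all 12 of those reported.

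**Figure D5:**
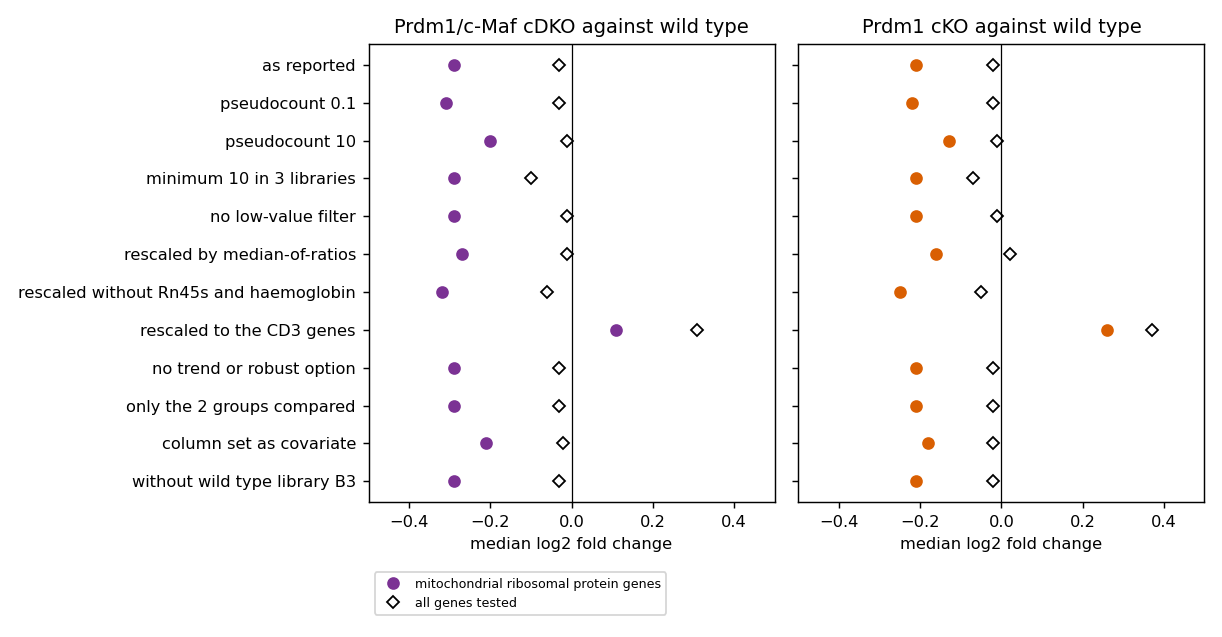
Median log2 fold change of the 76 mitochondrial ribosomal protein genes (filled) and of all genes tested (open) against wild type under each processing choice, for cDKO and Prdm1 cKO libraries. The members lie left of all genes in every setting shown; rescaling to the CD3 genes moves all genes to 0.31 in cDKO and 0.37 in Prdm1 cKO and turns the members' medians to 0.11 and 0.26.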

How the data were processed

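CD8+ T cells from B16F10 tumours were profiled by bulk RNA sequencing. Per the submitters' processing notes, TopHat, RSEM and DESeq were used on mouse build mm9; versions, step order and strand setting: not given in the sources used here. Normalised signal per gene symbol was deposited by the authors as 1 table, whose scale is not stated. It is not counts, so depth is unknown and no count model was run. Each column was placed in a group by the genotype in its name; the names carry no replicate number. Libraries are called by the code in the column name, and 0 per-sample columns were left unused.

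Values were taken as log2(signal + 1), so fold changes of low values are understated. The test took the 12251 genes that reached 1 in 3 or more libraries. Limma 3.58.1 (R 4.3.3; trend and robust options) fitted all 25 libraries of 4 groups together, without covariates, and p-values were adjusted by Benjamini-Hochberg over all genes tested, with a threshold of 0.05. Errors of fold changes are standard errors. The procedure was tested on simulated data: 95% of 200 genes changed by 2 on the log2 scale were recovered for cDKO against wild type, with 3.55% false among the called, over 12251 genes. That change was larger than any of the members in this comparison (median -0.29, largest -0.96 for Mrps6), and noise was drawn separately for each gene. Recovery of changes as small as those of the members, or under shifts shared by many genes, was not tested. Prdm1 and Maf were compared by exact permutation. Alternatives changed the pseudocount (0.1, 10), filter, scaling, options, libraries fitted and column set, or left out a library.

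Members named with values were up to 6 called of largest fold change per direction in each comparison with wild type, the 3 of lowest p where fewer than 3 were called, up to 3 of lowest adjusted p between knockouts, the 3 of highest and lowest level, and 18 fixed by role. Of other lists, up to 3 called genes were eligible. Mrpl39, Mrpl40, Mrps21 and the members listed for non-overlap or a fold change above 0 were named after their values were seen. The members, lists and rule were chosen with earlier results of these data known. Exon overlaps are from GENCODE M21 by name, and promoters from RefSeq on GRCm38.p6; neither is the build of the table. Gene markers of other cell types were summed per library.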

Additional observations from a re-analysis of the deposited data

How the results depend on the processing

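The number of called members in cDKO against wild type, 12, became 2 when libraries were rescaled to Cd3d, Cd3e and Cd3g, 7 with the column set as covariate, 9 with no filter on low values, and 3 to 12 with each cDKO library left out. The 12 comprised 1 higher and 11 lower; the CD3 rescaling gave 2 higher and 0 lower and the covariate 2 higher and 5 lower, the added one being Mrps30 (0.89, adjusted p = 0.0162 in limma). In Prdm1 cKO against wild type the 2 became 0 under the CD3 rescaling, without trend and robust options and with the column set, 4 without Rn45s and haemoglobin in the scaling, and 0 to 3 with each knockout library left out. Leaving out wild-type library B3, whose CD3 genes were lowest, was added after seeing the data and gave 17 members in cDKO and 4 in Prdm1 cKO. In c-Maf cKO it stayed at 0 in all 14 alternatives; over all genes 4 were called without trend and robust options. In cDKO against c-Maf cKO the 10 became 16 with a minimum of 10, 1 under the CD3 rescaling, 5 in a fit of only those libraries, 0 with the column set, and 4 to 11 with each library left out. In Prdm1 cKO against c-Maf cKO the 0 became 1 with a minimum of 10, 3 without Rn45s and haemoglobin, 0 to 2 with each library left out, and 2 without B3. In cDKO against Prdm1 cKO it stayed at 0.

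Medians turned sign under the CD3 rescaling against wild type, to 0.11 for cDKO, 0.26 for Prdm1 cKO and -0.14 for c-Maf cKO, and to 0.29 in cDKO against c-Maf cKO and 0.39 in Prdm1 cKO against c-Maf cKO. With the column set they were -0.08 in c-Maf cKO against wild type, 0.04 in cDKO against Prdm1 cKO, -0.09 in cDKO against c-Maf cKO and -0.08 in Prdm1 cKO against c-Maf cKO. With each library left out, the median of cDKO against Prdm1 cKO ran from -0.11 to 0.01. The cause was not tested. No paired analysis was possible because the labels give no litter, day or other pairing of libraries. Depth is unknown, and 3 libraries a group limit precision.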

Other observations

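Among wild-type libraries compared by column set, limma called 3 of 76 members (3.95%), a share near the 2.75% of all genes tested. Mrps30, whose product lies in the large subunit in mammalian structures, averaged 26.0 ± 4.14, 29.2 ± 4.56 and 11.6 ± 2.93 in sets 1, 2 and 3 (SD, n = 7, 4 and 5, limma adjusted p = 0.000546), and no value of set 3 reached the others. Mrpl10, which carries the stalk proteins of the large subunit, averaged 26.6, 41.1 and 31.7 in the same order (limma adjusted p = 0.0252), and Mrpl21 averaged 16.1, 25.8 and 17.0 (limma adjusted p = 0.0494). For both, set 2 was highest. In cDKO libraries Mrps30 had 13.6, 27.9 and 27.0, so that A1 and A2 lay above all wild-type libraries of their own set 3 (7.26 to 14.8) and C2 among them. A1 and A2 lay inside the range of the wild-type libraries of set 1 (20.7 to 31.8), which share their letter A. Mrpl46 and Mrps11, which overlap each other on opposite strands, are the sole member pair of this kind.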
